A study of Mus musculus with 10 samples.

Results

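Metallothioneins and the genes that move zinc were examined in colonic organoids of mice with and without PPARγ in the intestinal epithelium. The set holds 9 of the 18820 genes with a probe set of their own on the array. It comprises the metallothioneins Mt1, Mt2, Mt3 and Mt4 and their zinc-sensing activator Mtf1. It also holds the exporter genes Slc30a1 (for zinc) and Slc30a10 (known mainly for manganese) and the zinc importer genes Slc39a4 and Slc39a5. The genes were chosen because Mt1 was already known to differ between the genotypes in these arrays. Differences between genotypes are therefore given for them as descriptions. Calls between the genotypes from a fit over all probe sets are stated, but nothing is read from them. Each of the 9 genes had exactly 1 probe set that carried its symbol alone, and all 9 were tested, as no filter on low values was used.

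Expression was measured with Affymetrix whole-transcript arrays, 1 array per organoid culture, in 10 cultures from 6 male mice of C57BL/6J background. The knockout (KO) mice were homozygous for a Pparg allele with loxP sites around exons 1 and 2 and carried Cre recombinase under the villin promoter, which is active in the intestinal epithelium, and the wild-type (WT) mice were their littermates. Organoids were grown from colon crypts in Matrigel with Wnt, Noggin, R-spondin, EGF and N-acetylcysteine, and treated for 24 h with 1 µM rosiglitazone, a drug that activates PPARγ, or with 0.1% DMSO as vehicle. The 4 groups were KO rosiglitazone (replicates 1, 2 and 3 from mice 46, 45 and 44), KO vehicle (replicates 1 and 2 from mice 46 and 44), WT rosiglitazone (replicates 1, 2 and 3 from mice 48, 42 and 47) and WT vehicle (replicates 1 and 2 from mice 42 and 47). The labels give neither the age of the mice nor whether the WT littermates carried the floxed allele or the Cre transgene, so the floxed allele, the Cre transgene and the loss of PPARγ cannot be told apart. Mice 45 and 48 had a rosiglitazone array and no vehicle array.

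Metallothioneins are small proteins rich in cysteine that bind zinc and copper through their thiol groups and buffer the free metal of the cell. Their genes are switched on by MTF1, a zinc finger protein that binds metal response elements in promoters when cellular zinc is high. In the mouse, Mt1 and Mt2 are expressed widely, including in the gut, and are usually induced together by zinc, cadmium, glucocorticoids and oxidative stress. Mt3 is best known from the brain and Mt4 from stratified squamous epithelium. Proteins of the SLC30 (ZnT) family carry zinc out of the cytosol, and those of the SLC39 (ZIP) family carry it in.

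The 4 metallothionein genes lie side by side on chromosome 8 (GRCm38.p6, RefSeq), in the order Mt4 at chr8:94137204-94139031, Mt3 at chr8:94152607-94154148, Mt2 at chr8:94172618-94173567 and Mt1 at chr8:94178883-94180327. Mtf1 lies at chr4:124802549-124849800, Slc30a1 at chr1:191906697-191913248, Slc30a10 at chr1:185454848-185468762, Slc39a4 at chr15:76612383-76618506 and Slc39a5 at chr10:128395927-128401276.

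Promoter windows from RefSeq, of 300 bases each (250 before the transcript start to 50 after it), were searched for the core of the metal response element, the site that MTF1 binds. The core was taken as TGCACNC or TGCGCNC on either strand. The windows of Mt1, Mt2 and Slc30a1 are shown because all 3 genes are textbook targets of MTF1, while their values in these arrays took different courses. They lie at chr8:94178839-94179138 (Mt1), chr8:94172368-94172667 (Mt2) and chr1:191906531-191906830 (Slc30a1), all on the plus strand. The transcript starts of the Mt1 and Slc30a1 windows lie downstream of where the RefSeq genes begin. Capitals mark the matches to the core, a match to the minus strand being shown as it reads on the plus strand.
Mt1: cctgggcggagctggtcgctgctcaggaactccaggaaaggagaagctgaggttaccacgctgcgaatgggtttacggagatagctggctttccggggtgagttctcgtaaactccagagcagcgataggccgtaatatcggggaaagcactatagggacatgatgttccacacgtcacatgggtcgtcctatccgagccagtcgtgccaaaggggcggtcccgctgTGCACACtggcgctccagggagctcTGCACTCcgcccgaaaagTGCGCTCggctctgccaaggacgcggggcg
Mt2: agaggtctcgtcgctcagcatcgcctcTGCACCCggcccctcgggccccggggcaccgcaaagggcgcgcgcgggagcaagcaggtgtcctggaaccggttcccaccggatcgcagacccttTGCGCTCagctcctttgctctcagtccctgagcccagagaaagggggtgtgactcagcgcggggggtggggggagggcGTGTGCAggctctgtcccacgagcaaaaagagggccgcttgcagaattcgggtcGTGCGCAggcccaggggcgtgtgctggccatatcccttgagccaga
Slc30a1: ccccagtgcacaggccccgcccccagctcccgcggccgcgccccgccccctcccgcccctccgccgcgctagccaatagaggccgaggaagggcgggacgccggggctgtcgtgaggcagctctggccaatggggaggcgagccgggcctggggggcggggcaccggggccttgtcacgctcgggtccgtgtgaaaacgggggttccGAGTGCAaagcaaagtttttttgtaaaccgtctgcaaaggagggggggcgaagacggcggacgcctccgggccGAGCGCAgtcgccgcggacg
The Mt1 window held 3 matches, all on the plus strand, with their first bases at -23, 3 and 21 from the transcript start, counted with the start as 1. The Mt2 window held 4 matches, with first bases at -223, -128, -50 and 5. The Slc30a1 window held 2, at -43 and 31. Slc30a10 had 3 matches, of which a pair overlapped on opposite strands, Mt3 and Mt4 had 1 each, Mtf1 had 0, and the 2 windows of Slc39a5 had 1 and 0. Of all 32851 promoter windows in the table, 25.7% held at least 1 match, 1.97% at least 3 and 0.517% at least 4, so the core alone is a common string. The antioxidant response element, searched as TGACNNNGC on either strand, was matched once in the windows of Mt2 and of Slc30a1, at 2 places in 1 window of Slc39a5, and in 12.4% of all windows. A direct repeat of AGGTCA with a spacer of 1 base, the textbook PPAR element, was matched in 0 of the members' windows and in 0.0396% of all windows. Bases outside the windows were not searched. Each count therefore depends on the transcript start that placed its window, and need not cover the whole promoter of Mt1 or of another gene. These matches describe letters in the windows and say nothing of binding in these organoids.

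In the arrays as a whole, both cultures of KO mouse 46 stood apart. On the first principal component, with 27.4% of the variance, they lay at -31.75 (rosiglitazone) and -39.3 (vehicle), and the other 8 arrays lay between -4.1 and 19.6. Pparg read 7.37 to 8.78 on the log2 scale in KO arrays and 7.59 to 8.41 in WT arrays, but where its probes lie relative to the deleted exons is unknown here. It therefore cannot serve as a check of the deletion, and the genotype of each array is taken from its label. The epithelial identity of the cultures was borne out by their markers, as the median of 9 epithelial genes (such as Epcam and Vil1) read 10.50 to 10.88 in KO arrays and 10.44 to 10.63 in WT arrays. All 7 fibroblast, all 4 endothelial and all 4 measured neural and muscle markers had means below 4, as had 5 of 6 immune markers. The exception was Cd68, a lysosomal protein of macrophages. It lay between 6.96 and 7.79 in KO arrays and between 7.90 and 8.45 in WT arrays. The genotypes did not overlap, as for 1.02% of all probe sets in that direction. For Cd68 the adjusted p (limma) was 0.578 between the rosiglitazone groups and 0.846 between the vehicle groups. Its part in the genotype differences of the zinc genes was not tested. In these bulk cultures fewer cells of a type and less RNA per cell cannot be told apart.

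The Mt1 signal was 3.87 times as high on average in KO organoids as in WT organoids, and higher in every KO culture than in any WT culture. It read 10.49, 10.62 and 10.31 on the log2 scale in KO rosiglitazone replicates 1 to 3, against 8.48, 8.57 and 8.35 in WT rosiglitazone replicates 1 to 3. In vehicle it read 10.48 and 10.10 in KO replicates 1 and 2, against 8.73 and 8.30 in WT replicates 1 and 2. All 5 KO arrays were thus high and all 5 WT arrays low, and the lowest KO array lay 1.37 above the highest WT array. These are signals of the Mt1 probe set, which need not all come from the Mt1 gene. Some Cre constructs carry the polyadenylation sequence of Mt1, and neither the sequence of the Villin-Cre transgene nor the place of the probes within Mt1 is given in the sources used here. Whether the probe set could also read RNA of the transgene was not tested.

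With each mouse represented by the mean of its arrays, Mt1 averaged 10.44 ± 0.21 in KO mice and 8.48 ± 0.16 in WT mice (log2, SD, n = 3 mice each). The difference between these means, 1.95, corresponds to a 3.87-fold higher signal of the probe set in KO mice. It was 2.01 (SE 0.16, 4.02-fold) between the rosiglitazone groups and 1.77 (SE 0.19, 3.42-fold) between the vehicle groups in the fit over all 10 arrays. Without mouse 46 these differences were 2.00 and 1.58. Ordered by group mean, KO rosiglitazone (10.48) came first, then KO vehicle (10.29), WT vehicle (8.51) and WT rosiglitazone (8.47), and the neighbours within each genotype differed by less than the spread of their arrays.

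Among the 23099 annotated probe sets, the gap of 1.37 between the lowest KO and the highest WT array was the largest of all, and the difference between mouse means had rank 5 from the highest. All KO arrays lay above all WT arrays for 0.905% of probe sets and below them for 1.02%. Mt1 was the single member of the 9 whose genotypes did not overlap. At an adjusted p below 0.05 (limma, two-sided, Benjamini-Hochberg over 23099 probe sets), 0.0216% of probe sets, 5 in number, passed between KO rosiglitazone and WT rosiglitazone and 0% between KO vehicle and WT vehicle. Of the 9 members, 1, namely Mt1, passed in rosiglitazone and 0 passed in vehicle. The count of 5 ran from 1 to 23 when 1 array was left out, with 23 without WT rosiglitazone replicate 1. With the mouse as a random block Mt1 passed in both treatments, and it was the 1 probe set that did so in vehicle. In vehicle this call depended on the setting. Mt1 passed with centring, for example, but not on the 4 mice with both treatments or with only the groups compared. As Mt1 was picked by its difference between the genotypes, nothing is read from these ranks, from its lack of overlap or from those calls.

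**Figure D1:**
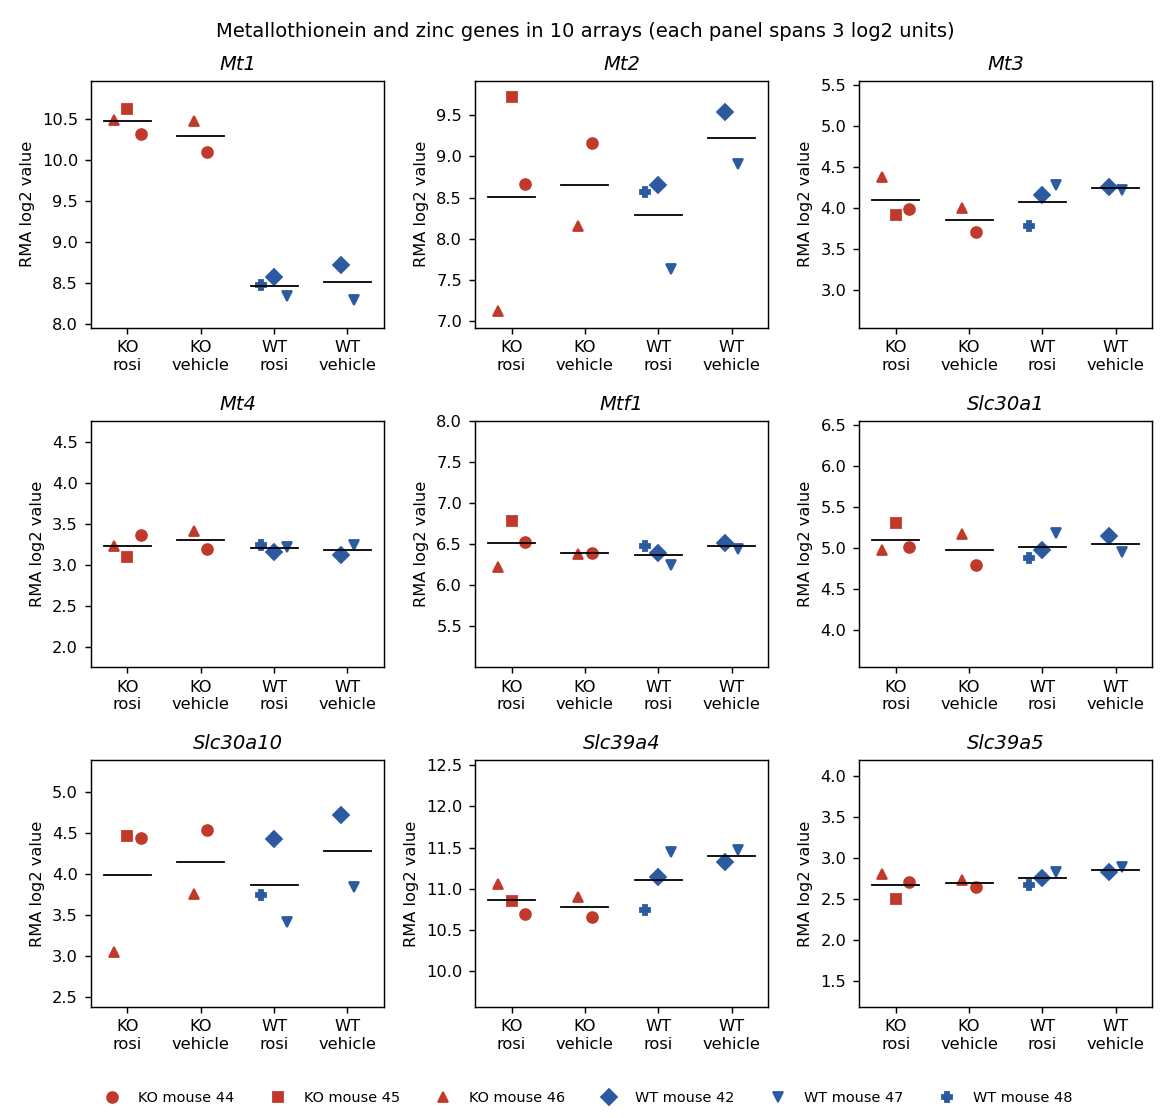
RMA log2 values of the 9 genes (vertical axis, 3 log2 units in each panel) in the 4 groups, with 1 point per array, a symbol per mouse, KO in red, WT in blue and a bar at each group mean (rosi, rosiglitazone). Mt1 is the one panel in which all 5 KO arrays, from 10.10 to 10.62, lie above all 5 WT arrays, from 8.30 to 8.73, while Mt2 and Slc30a10 are scattered within each genotype.

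Rosiglitazone left Mt1 within the spread of the arrays. In the mice with both treatments, rosiglitazone minus vehicle was 0.21 and 0.01 (log2) in KO mice 44 and 46 and -0.15 and 0.05 in WT mice 42 and 47. The fitted response was 0.19 (SE 0.18) in KO organoids and -0.05 (SE 0.18) in WT organoids, each at an adjusted p of 1.00 (limma). The KO response minus the WT response was 0.23 (SE 0.25, adjusted p = 1.00, limma). In each of these 3 comparisons 0% of all probe sets passed, and 706, 229 and 536 probe sets had an unadjusted p below 0.05. With each mouse as its own block, which uses the 4 mice with both treatments, the response of Mt1 averaged over the genotypes was 0.03 (SE 0.09).

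Mt2, the close neighbour and partner of Mt1, overlapped between the genotypes. Its arrays read 7.12, 9.72 and 8.67 in KO rosiglitazone replicates 1 to 3, against 8.57, 8.65 and 7.63 in WT rosiglitazone replicates 1 to 3. In vehicle they read 8.15 and 9.17 in KO replicates 1 and 2, against 9.55 and 8.91 in WT replicates 1 and 2. The highest array of all was that of KO mouse 45 and the lowest the rosiglitazone array of KO mouse 46, with the WT arrays between them.

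By mouse, Mt2 averaged 8.76 ± 1.05 in KO mice and 8.65 ± 0.42 in WT mice (log2, SD, n = 3 each), a difference of 0.11. The difference between the rosiglitazone groups, 0.22 in the fit over all arrays, rested on single arrays. It ran from -0.39 to 0.91 when 1 array was left out, with 0.91 without KO rosiglitazone replicate 1 (mouse 46), and it changed sign in 3 of 19 settings. Between the vehicle groups it was -0.57, and from -1.08 to -0.06 when 1 array was left out. Its residual SD within groups was 0.89, larger than that of 99.3% of probe sets, whereas that of Mt1 was 0.20, near the middle (percentile 54.4). Signal was high for both genes, with means at percentile 93.5 for Mt1 and 88.7 for Mt2 of the annotated probe sets, although such a percentile also depends on the probes.

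Within mice, Mt2 read lower in rosiglitazone than in vehicle in 4 of 4. The difference was -0.50 in KO mouse 44, -1.03 in KO mouse 46, -0.90 in WT mouse 42 and -1.28 in WT mouse 47. Rosiglitazone arrays thus lay below vehicle arrays of the same mouse in both genotypes, as they did for 6.98% of all probe sets. The mean, -0.93 ± 0.32 (SD, n = 4 mice), corresponds to 0.526 of the vehicle signal and was the lowest of all 23099 probe sets. A cut-off was also set at the smallest of the 4 Mt2 differences, which Mt2 meets by construction. With it, 0.00866% of probe sets, 2 in number with Mt2 among them, were lower by at least 0.50 in all 4 mice.

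That difference did not pass a test. The exact two-sided sign-flip permutation test over 4 mice gave p = 0.125, the smallest that 4 mice allow. Any 4 differences of one sign give this p, so it adds nothing to the signs. In the fit with the mouse as a fixed block the response averaged over genotypes was -0.93 (SE 0.12, unadjusted p = 0.000158), but the adjusted p over 23099 probe sets was 0.708 (limma), where 0% passed and 5.9% had an unadjusted p below 0.05. The same fit gave -0.77 (SE 0.17, adjusted p = 0.64) in KO mice, where 0% passed and 7.49% had an unadjusted p below 0.05. In WT mice it gave -1.09 (SE 0.17, adjusted p = 0.369), where 0% passed and 3.85% had such a p, and the KO response minus the WT response was 0.32 (SE 0.24). Without the block, the responses were -0.16 (SE 0.63) in KO and -0.94 (SE 0.63) in WT organoids, each at an adjusted p of 1.00 (limma). The KO response was -0.77 without replicate 2 of KO rosiglitazone (the array of mouse 45, which had no vehicle array) and 0.54 without replicate 1 (mouse 46). Averaged over the genotypes without the block it was -0.55 (SE 0.45), where 0% of probe sets passed and 1.65% had an unadjusted p below 0.05. That average was chosen as a comparison after the values of Mt2 had been seen.

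**Figure D2:**
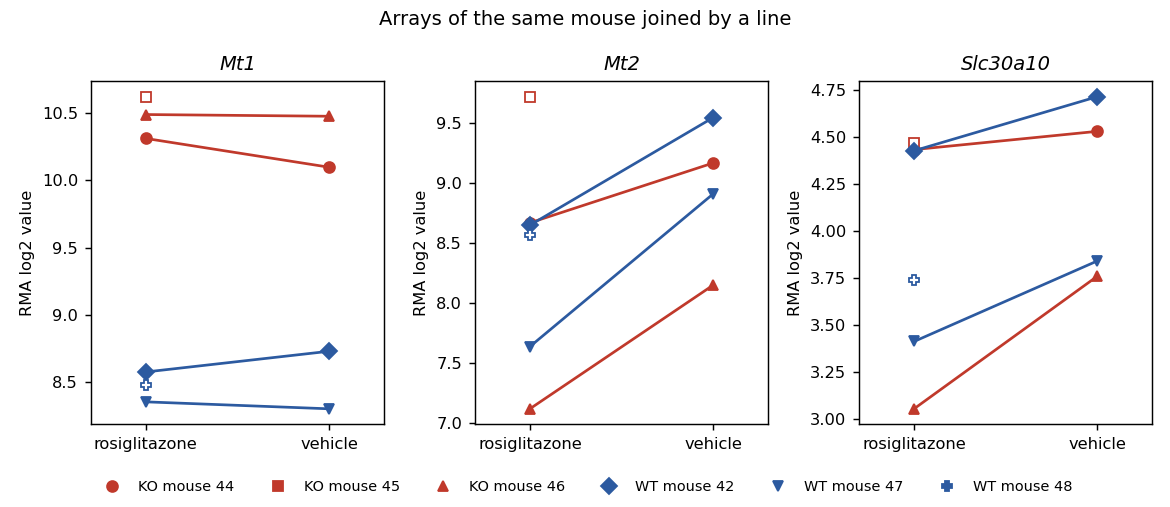
RMA log2 values of Mt1, Mt2 and Slc30a10 (vertical axis, scaled to each gene) under rosiglitazone and vehicle, with the 2 arrays of a mouse joined by a line, KO in red, WT in blue, and open symbols for mice 45 and 48, which had no vehicle array. Lines of Mt2 slope to a lower rosiglitazone value in all 4 mice, by 0.50 to 1.28, while those of Mt1 are nearly flat.

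The distance between the 2 metallothioneins, measured as Mt1 minus Mt2 within an array, differed accordingly. It was 1.65 and 0.93 (log2; rosiglitazone, then vehicle) in KO mouse 44, 3.37 and 2.33 in KO mouse 46 and 0.90 in the rosiglitazone array of KO mouse 45. In WT mice it was -0.07 and -0.82 in mouse 42, 0.72 and -0.61 in mouse 47 and -0.09 in the rosiglitazone array of mouse 48. All 5 KO arrays lay above all 5 WT arrays, and in each of the 4 mice with both treatments the value was higher in rosiglitazone than in vehicle. By mouse it averaged 1.68 ± 1.03 in KO and -0.16 ± 0.26 in WT (SD, n = 3 each), a difference of 1.84. This shows unequal change between 2 probe sets, whose own levels cannot be set against each other, and it carries the genotype difference by which Mt1 was picked.

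Mt3 and Mt4 gave little signal, with means at percentiles 47.4 and 40.5. Mt3 read 3.71 to 4.38 in KO arrays and 3.78 to 4.28 in WT arrays, and Mt4 read 3.11 to 3.41 in KO arrays and 3.12 to 3.25 in WT arrays. The genotypes overlapped for both. The response of Mt3 was 0.24 (SE 0.19) in KO and -0.17 (SE 0.19) in WT organoids, and that of Mt4 was -0.07 (SE 0.13) and 0.02 (SE 0.13), none of which passed the test.

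Mtf1, the activator of Mt1 and Mt2, had a residual SD within groups of 0.18, against 0.89 for Mt2. It read 6.22, 6.78 and 6.53 in KO rosiglitazone replicates 1 to 3, against 6.48, 6.39 and 6.25 in WT rosiglitazone replicates 1 to 3. In vehicle it read 6.38 and 6.39 in KO replicates 1 and 2, against 6.51 and 6.44 in WT replicates 1 and 2. By mouse it averaged 6.52 ± 0.25 in KO and 6.42 ± 0.07 in WT (SD, n = 3 each), with KO arrays both above and below the WT range. Its fitted responses were 0.13 (SE 0.17) in KO and -0.10 (SE 0.17) in WT organoids, each at an adjusted p of 1.00 (limma).

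Of the exporters, Slc30a1 encodes ZnT1, which carries zinc across the plasma membrane out of the cell and is, like Mt1, a target of MTF1. It read 4.98, 5.31 and 5.01 in KO rosiglitazone replicates 1 to 3, against 4.88, 4.97 and 5.19 in WT rosiglitazone replicates 1 to 3. In vehicle it read 5.17 and 4.80 in KO replicates 1 and 2, against 5.15 and 4.96 in WT replicates 1 and 2. The genotypes overlapped, and the mouse means, 5.10 ± 0.21 in KO and 5.01 ± 0.11 in WT (SD, n = 3 each), differed by 0.09, where those of Mt1 differed by 1.95. Its responses were 0.12 (SE 0.17) in KO and -0.04 (SE 0.17) in WT organoids, each at an adjusted p of 1.00 (limma).

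Slc30a10, whose product is known mainly as an exporter of manganese, followed Mt2 from array to array. It read 3.06, 4.47 and 4.43 in KO rosiglitazone replicates 1 to 3, against 3.74, 4.43 and 3.41 in WT rosiglitazone replicates 1 to 3. In vehicle it read 3.76 and 4.53 in KO replicates 1 and 2, against 4.71 and 3.84 in WT replicates 1 and 2. As with Mt2, KO mouse 46 was at the low end and the genotypes overlapped. Its mean signal was low, at percentile 47.2, where that of Mt3 lay at 47.4. Its residual SD within groups was 0.65, larger than that of 98.4% of probe sets.

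Within mice Slc30a10 was lower in rosiglitazone in 4 of 4, with differences of -0.10 and -0.70 in KO mice 44 and 46 and of -0.29 and -0.43 in WT mice 42 and 47. The mean was -0.38 ± 0.26 (log2, SD, n = 4 mice). The exact two-sided sign-flip permutation test gave p = 0.125, again the smallest possible. As 4 differences of one sign always give this p, it adds nothing to the signs. Of the members, only Mt1, Mt2 and Slc30a10 were given this test. With the mouse as a fixed block the adjusted p of Slc30a10 was 0.837 (limma). Mt2 and Slc30a10 were the 2 of the 9 members that were lower in all 4 mice, against 6.98% of all probe sets, and 0 members were higher in all 4, against 6.33%. Over the 10 arrays, which come from 6 mice, Mt2 correlated with Slc30a10 at r = 0.888, with Mtf1 at 0.831, with Slc30a1 at 0.118 and with Mt1 at -0.03. These are descriptions of arrays that share mice and treatments. Mice 46 and 45 gave the lowest and the highest array of Mt2 and of Mtf1, and mouse 46 the lowest of Slc30a10. The same 2 mice held the ends of the first principal component of all probe sets. Their part in these correlations was not tested.

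Mt2 also moved with markers of goblet cells, the mucus-secreting cells of the colon. It correlated with the median of 8 goblet genes (such as Muc2 and Agr2) at r = 0.751 and with that of 9 epithelial genes at -0.622. Summed over the 8 goblet genes, the log2 values ran from 29.6 to 63.8 in KO arrays and from 32.6 to 43.8 in WT arrays, with the lowest sum in mouse 46 and the highest in mouse 45, which were also the lowest and the highest for Mt2. Within mice, however, rosiglitazone minus vehicle in that sum was 5.46 and -0.40 in KO mice 44 and 46 and -3.01 and -1.47 in WT mice 42 and 47, so it was higher in rosiglitazone in mouse 44, in which Mt2 was lower. Between KO and WT rosiglitazone all 8 goblet genes had higher KO means (median 1.24), against 50.5% of all probe sets. Between KO and WT vehicle 2 were higher and 6 lower (median -0.77), with 55.6% of all probe sets higher. Mt2 differed by 0.22 and -0.57. Goblet markers were not alone in this. In rosiglitazone 6 of 7 deep crypt secretory and Paneth markers (median 0.83) and 5 of 6 enteroendocrine markers (median 0.31) were higher in KO. In vehicle 4 of 7 (median 0.06) and 2 of 6 (median -0.05) were. Of the 8 goblet genes, 0 passed the test in any of the comparisons. The part of the goblet markers in the spread of Mt2 was not tested.

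Among the importers, Slc39a4 encodes ZIP4, the apical transporter through which the intestine takes up dietary zinc. Its mean signal lay at percentile 98.1. It read 11.06, 10.85 and 10.70 in KO rosiglitazone replicates 1 to 3, against 10.74, 11.14 and 11.44 in WT rosiglitazone replicates 1 to 3. In vehicle it read 10.90 and 10.66 in KO replicates 1 and 2, against 11.33 and 11.47 in WT replicates 1 and 2. In rosiglitazone the groups overlapped, with WT mouse 48 among the KO values. In vehicle both KO arrays lay below both WT arrays. Groups of 2 arrays separate easily, and the share of all probe sets that did so was not counted, so nothing is read from this separation.

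Markers of mature colonocytes were set beside Slc39a4. Between KO and WT vehicle all 8 were lower (median -0.66, against 0.03 over all probe sets), from -0.03 for Aqp8, a water channel, to -3.08 (SE 0.53, adjusted p = 0.363, limma) for Slc9a3, a sodium-proton exchanger. Between KO and WT rosiglitazone 6 were lower and 2 higher (median -0.06), from -0.57 for Car1, a carbonic anhydrase, to 0.92 for Slc26a3, a chloride-bicarbonate exchanger. None of the 8 passed the test in either comparison. Their log2 values summed to 47.6 and 47.5 in KO vehicle replicates 1 and 2, against 54.1 and 57.7 in WT vehicle replicates 1 and 2. Over all arrays the genotypes did not overlap for 1 of the 8, Car1, with 10.77 to 11.42 in KO arrays and 11.47 to 11.92 in WT arrays, as for 1.02% of all probe sets in that direction. The part of the colonocyte markers in the values of Slc39a4 was not tested.

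By mouse Slc39a4 averaged 10.83 ± 0.15 in KO and 11.14 ± 0.37 in WT (log2, SD, n = 3 each), a difference of -0.31. It was -0.62 (SE 0.22) between the vehicle groups and -0.24 (SE 0.18) between the rosiglitazone groups. The response to rosiglitazone was 0.09 (SE 0.20) in KO and -0.29 (SE 0.20) in WT organoids, each at an adjusted p of 1.00 (limma). Over the 10 arrays its correlation with Mt1 was -0.645, a value that includes the differences of both genes between the genotypes.

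Slc39a5 encodes ZIP5, which sits at the basolateral face of intestinal cells. Its mean signal lay at percentile 32.2, with 2.49 to 2.81 in KO arrays and 2.67 to 2.88 in WT arrays, and the genotypes overlapped. Its responses were -0.02 (SE 0.13) in KO and -0.10 (SE 0.13) in WT organoids, each at an adjusted p of 1.00 (limma). Values this low leave little room in which a fall could be seen.

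The genes around Mt1 on chromosome 8 were examined next, 5 measured genes on each side. Besides the other metallothioneins these were Ogfod1 and Bbs2 on one side, and Nup93, Mir138-2, Slc12a3, Herpud1 and 9330175E14Rik on the other. The fitted difference between KO and WT was 0.20 in rosiglitazone and 0.17 in vehicle for Ogfod1, a prolyl hydroxylase of the ribosome. For Nup93, a nuclear pore protein next to Mt1, it was 0.16 and -0.12, and for Herpud1, a protein of the endoplasmic reticulum stress response, -0.14 and 0.12. Ogfod1 read 7.49 to 7.72 in KO arrays and 7.36 to 7.49 in WT arrays, a narrow overlap, and the genotypes overlapped for each of the 10 neighbours. The large genotype difference was thus measured by the probe set of Mt1 and by none of those of its 10 measured neighbours, which does not show from where in the genome the RNA that it read was transcribed.

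**Figure D3:**
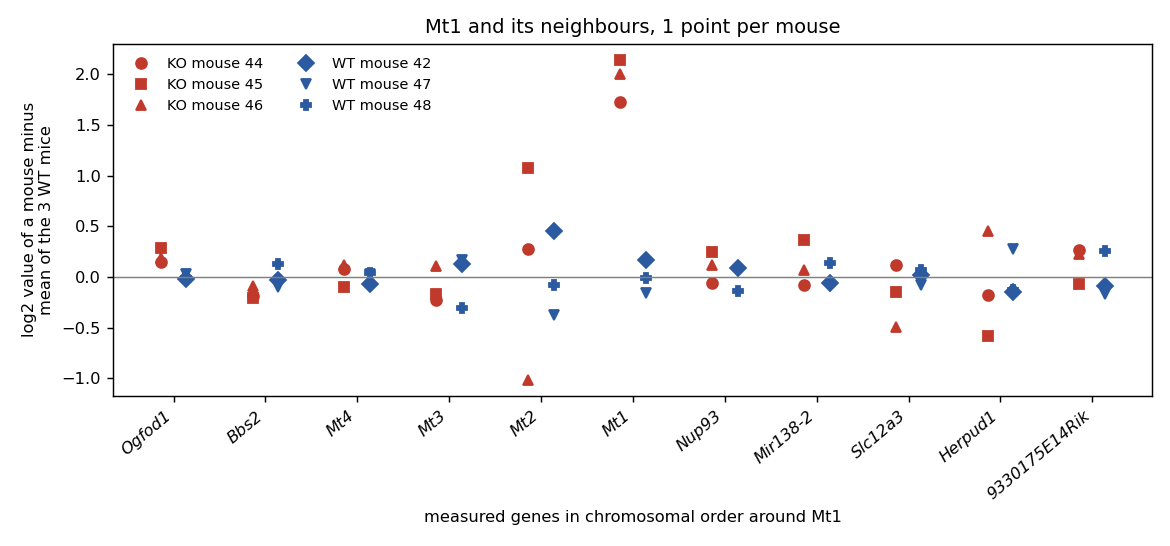
Values of Mt1 and its 10 nearest measured genes in chromosomal order, each mouse shown as the mean of its arrays minus the mean of the 3 WT mice (vertical axis, log2), KO in red and WT in blue. The 3 KO mice lie well above the WT mice at Mt1 (mean difference 1.95), and at Mt2 they lie on both sides of them.

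Of the 20 further SLC30 and SLC39 genes, all measured, 0 passed the test in any of the 5 comparisons. Between KO and WT rosiglitazone 10 were higher and 10 lower (median 0.00, as over all probe sets), and between KO and WT vehicle 8 were higher and 12 lower (median -0.03, against 0.03 over all probe sets). After rosiglitazone 9 were higher and 11 lower in KO organoids (median -0.06, against -0.01 over all) and 8 higher and 12 lower in WT organoids (median -0.02, against 0.01 over all). The genotypes overlapped for all 20. Slc30a4, a transporter into vesicles, read 9.20 to 9.82 in KO arrays and 9.01 to 9.39 in WT arrays, with a difference of 0.36 in rosiglitazone. Slc39a8, which encodes ZIP8, a carrier of zinc and manganese, ran from 3.76 to 6.04 in KO arrays and from 5.02 to 5.69 in WT arrays, and its difference of -0.93 between KO and WT vehicle was the largest of the list.

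**Figure D4:**
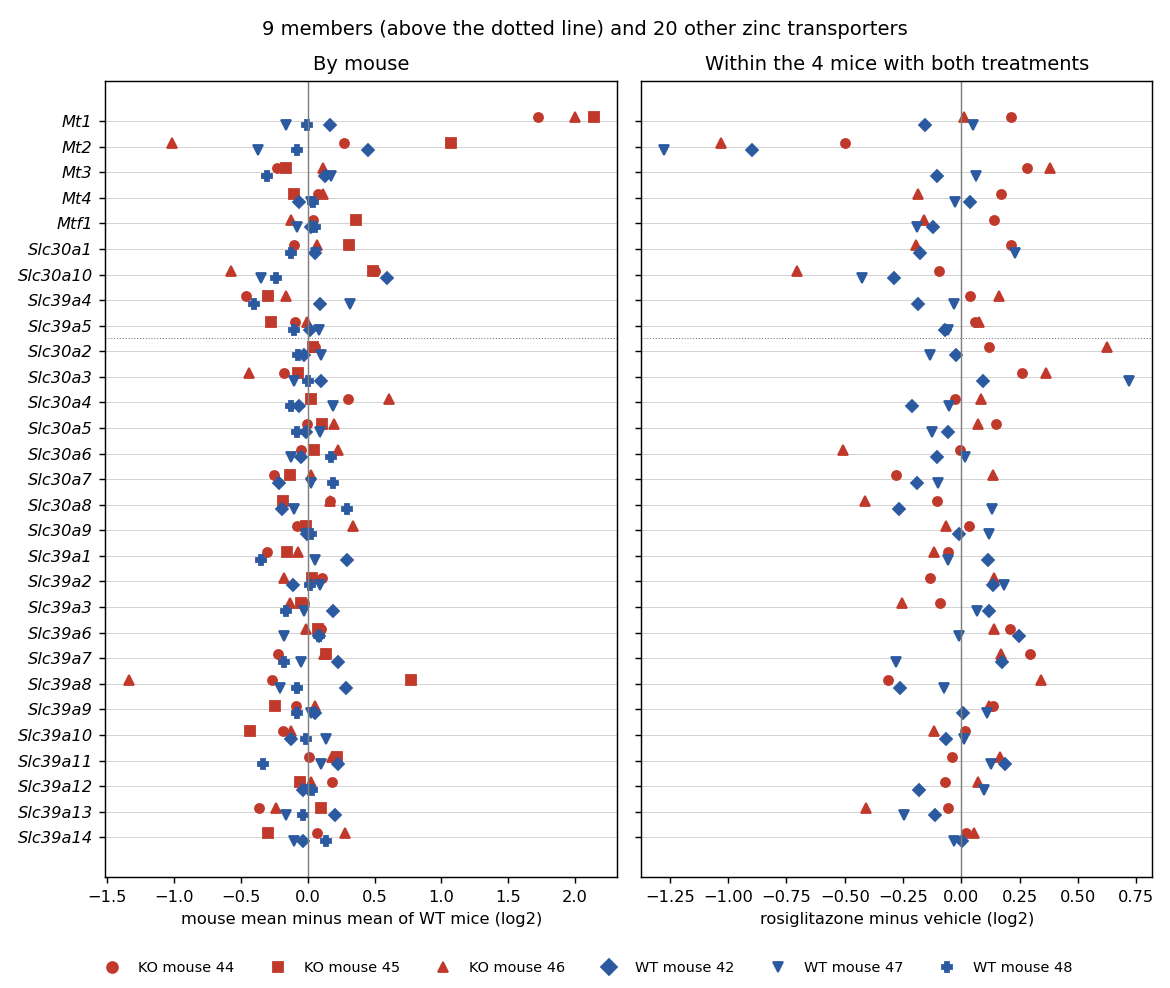
The 9 genes (above the dotted line) and 20 other zinc transporter genes, with each mouse as the mean of its arrays minus the mean of the 3 WT mice (left, log2) and rosiglitazone minus vehicle within each mouse that had both (right, log2), KO in red and WT in blue. Mt1 stands out on the left, with its 3 KO mice 1.95 above WT on average, and Mt2 on the right, with a mean of -0.93.

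Lists of other pathways that touch metallothioneins were counted in the same way, and 0 genes of each passed in any of the 5 comparisons. Copper handling, 9 measured genes, had 6 higher and 3 lower between KO and WT vehicle (median 0.04, from -0.30 to 0.15) and 6 and 3 between the rosiglitazone groups (median 0.05, from -0.16 to 0.30). Iron handling had 6 of 12 higher in vehicle (median 0.01, from -0.31 to 0.66) and 9 of 12 in rosiglitazone (median 0.07, from -0.47 to 0.67), with Slc40a1, the iron exporter ferroportin, at 0.66 and 0.67. Glucocorticoid targets, counted with the receptor gene Nr3c1, had 7 of 10 higher in vehicle (median 0.04, from -0.17 to 0.62). In rosiglitazone 3 of 10 were higher (median -0.05, from -0.69 to 0.22, the highest being Nr3c1 itself). The list for NRF2, the regulator of the oxidative stress response, held Nfe2l2, which encodes NRF2, and Keap1 besides targets. Under either treatment 9 of 12 were higher in KO, against 55.6% of all probe sets in vehicle and 50.5% in rosiglitazone. The differences had a median of 0.24 in vehicle and 0.12 in rosiglitazone, against 0.03 and 0.00 over all probe sets. In vehicle they ran from -0.12 for Osgin1 to 1.45 for Slc7a11, a cystine importer, and in rosiglitazone from -0.47 for Hmox1, a heme oxygenase, to 0.85 for Nqo1, a quinone reductase, which was at 1.07 in vehicle. Gsr, glutathione reductase, with smaller differences of 0.23 in vehicle and 0.38 in rosiglitazone, was the 1 gene of the list whose genotypes did not overlap, at 10.08 to 10.53 in KO arrays and 9.85 to 10.04 in WT arrays. All KO arrays lay above all WT arrays for 0.905% of all probe sets.

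The genes whose values most resembled those of Mt1 were found among 9245 single-symbol genes with a mean above the median. Over the 10 arrays they were Cdc42se2 (r = 0.963), Fam171a1 (0.945), Castor2 (0.920), Lxn (0.912) and Plekhj1 (0.895). As they were chosen by their correlation with a gene whose values split by genotype, their own differences between the genotypes follow from that choice. Those differences, KO minus WT, ran from 0.18 (Plekhj1) to 0.94 (Fam171a1). The genes most like Mt2 were Stra6l (r = 0.961), Metap1d (0.922), Tmsb4x (0.918), Clca3b (0.910) and Lcmt2 (0.909). Clca3b ran from 6.96 to 10.47 in KO arrays and from 8.14 to 9.71 in WT arrays, with its lowest value in mouse 46 and its highest in mouse 45, as for Mt2.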

How the data were processed

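Total RNA of 10 organoid cultures was measured on 1 Affymetrix array each. The deposited table holds log2 expression values of 35556 probe sets, made by the authors with RMA, per the submitters' processing notes, and RMA corrects background, quantile-normalizes the arrays and summarises probes. The values lay between 0.73 and 13.55, with array medians from 3.54 to 3.72, so dim genes are compressed. Arrays give no count depth, and their number limits the precision. No arrays were identical.

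Genes were named from the platform annotation of 23099 probe sets (21218 with 1 symbol, 1881 with several). The other 12457 probe sets were not tested. Promoters and coordinates came from RefSeq, GRCm38.p6, of which 8 of the 9 genes had a promoter window. Slc30a1 also had a probe set shared with another symbol, which was not used.

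Group means over all 10 arrays were fitted with limma 3.58.1 in R 4.3.3 (lmFit, contrasts, eBayes, 6 residual and 4.39 prior degrees of freedom, two-sided, Benjamini-Hochberg, threshold 0.05) for 5 comparisons, after a check on simulated data. Separate cultures of a mouse are not independent. The donor numbers in the labels pair the arrays of the treatments, and differences between mice of a genotype correlated across treatments (r = 0.487 in KO, 0.44 in WT). The mouse was therefore also fitted as a random block (statmod 1.5.0, consensus correlation 0.438) or a fixed block. Replicate numbers do not mark the mouse.

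Named genes were all members, 5 measured neighbours of Mt1 on each side, 5 genes with the highest correlation to Mt1 and to Mt2, and list genes that passed or, where none did, counts and the range. Slc30a4, Slc40a1, Gsr, Nqo1, Cd68, Car1 and Clca3b were chosen after their values were seen. The members, lists and comparisons were chosen with earlier results of these data known, so the permutation test planned for Mt1 minus Mt2 between genotypes is not given. Alternatives were centring, repeated quantile normalization, probe-set filters, a mean-variance trend, subsets of mice or groups, and leaving out each array.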

Additional observations from a re-analysis of the deposited data

Results flagged for a closer look

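For Slc39a4 and Slc39a5 the response to rosiglitazone ran opposite ways in the genotypes in the 4 mice with both treatments, but the difference did not pass the test. Rosiglitazone minus vehicle of Slc39a4 was 0.04 and 0.16 in KO mice 44 and 46 and -0.19 and -0.03 in WT mice 42 and 47, so the KO mean exceeded the WT mean by 0.21 (SE 0.17, adjusted p = 0.98 with the mouse as a fixed block, limma). For Slc39a5 it was 0.06 and 0.08 in the KO mice and -0.07 and -0.06 in the WT mice, a difference of 0.13 (SE 0.16, adjusted p = 0.984 in the same limma fit). Over all arrays the responses of Slc39a5 had one sign, -0.02 in KO and -0.10 in WT organoids, and its KO response changed sign in 6 of 19 settings. Of all 23099 probe sets 11.8% showed one sign in both KO mice and the other in both WT mice, and 0 passed for the difference of the responses with the fixed block (limma), with 1175 at an unadjusted p below 0.05 and a smallest adjusted p of 0.502. In the fit over all arrays 0 passed as well, with 536 at an unadjusted p below 0.05.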

How the results depend on the processing

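The genotype difference of Mt1 kept its direction under every alternative run, from 1.93 to 2.09 in rosiglitazone and from 1.56 to 1.99 in vehicle. Mt1 minus Mt2, 1.84 between mice, ran from 1.62 to 2.23 when 1 array was left out. The number of probe sets passing between KO and WT rosiglitazone (5) was 1 with repeated quantile normalization, with all deposited probe sets, without mouse 46 and with only the groups compared, 8 with a mean-variance trend, 16 on the 4 mice with both treatments, and from 1 to 23 when 1 array was left out (23 without WT rosiglitazone replicate 1). Between KO and WT vehicle (0) it was 1 with the mouse as a random replicate block, repeated quantile normalization or bright probe sets only, 2 with centring or the trend, 6 on the 4 mice, 4 with only the groups compared, and from 0 to 6 with 1 array left out (6 without WT rosiglitazone replicate 1). For rosiglitazone against vehicle in KO it was 1 with the random replicate block, against 0. That probe set was not a member. Among the members, the mouse block changed the call of Mt1 between the vehicle groups and no other. Nothing is read from that call, as Mt1 was picked by its genotype difference. Replicate numbers were not used to pair arrays. The responses that changed sign did not pass the threshold in any setting. Without mouse 46 the KO response was 0.027 for Mt2 and 0.040 for Mt4, and the difference of responses of Mt4 was 0.016. With the fixed replicate block, and on the 4 mice, the KO response was -0.0097 for Mtf1 and 0.068 for Slc39a5, the WT response of Slc30a1 0.026, and the difference of responses -0.016 for Slc30a1 and -0.043 for Slc30a10. The WT response of Slc30a1 was 0.0046 with centring and 0.00102 with repeated quantile normalization, and the KO response of Slc39a5 was 0.032 with repeated quantile normalization and 0.019 with the random replicate block. With 1 array left out, KO responses ran from -0.0022 to 0.38 for Mt1, from -0.77 to 0.54 for Mt2, from -0.18 to 0.038 for Mt4, from -0.0097 to 0.27 for Mtf1, from -0.072 to 0.30 for Slc30a1, from -0.54 to 0.30 for Slc30a10, from -0.031 to 0.21 for Slc39a4 and from -0.087 to 0.068 for Slc39a5. WT responses ran from -0.26 to 0.17 for Mt1, from -0.038 to 0.087 for Mt4, from -0.14 to 0.058 for Slc30a1 and from -0.85 to 0.019 for Slc30a10. The difference of responses ran from -0.20 to 0.013 for Mt4, from -0.033 to 0.34 for Slc30a1 and from -0.18 to 0.72 for Slc30a10. The extremes came from leaving out an array of the genotype concerned. The causes were not tested. No member had a second probe set of its own to try. Vehicle groups of 2 arrays limit every response. For dim genes (Mt3, Mt4, Slc30a10, Slc39a5) signal near background limits how small a change can be seen.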
